A study of Mus musculus with 12 samples.

Results

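The genes described here are the nuclear-encoded subunits of the mitochondrial respiratory chain and ATP synthase. They were chosen by symbol, as the Nduf, Sdh, Uqcr, Cyc1, Cox4 to Cox8 and Atp5 families, with at least 10 counts in 3 or more of the 12 libraries. Of 54429 entries in the count table, 88 had such a name and 84 reached the count minimum. Complex I had 36 members, complex II 4, complex III 9, complex IV 18 and complex V, the ATP synthase, 17. Ndufa4, which carries a complex I name but is a subunit of cytochrome c oxidase, was placed in complex IV. Atp5s was kept in complex V by its name alone, as its RefSeq symbol is Dmac2l and not that of an ATP synthase subunit.

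RNA came from brain punches of C57BL/6 mice, labelled BLA and VTA, 3 libraries in each of 4 groups. The BLA libraries were from males that had been socially isolated early in life or group-housed, and the VTA libraries were from females housed in the same 2 ways. Region and sex therefore changed together and cannot be told apart, and no label gives the ages. The labels do not say that replicate libraries are separate mice, so p-values measure the spread between libraries, which may be technical.

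Complex I takes electrons from NADH and complex II takes them from succinate. Both pass them through ubiquinone to complex III and by cytochrome c to complex IV, where oxygen is reduced. Complexes I, III and IV pump protons, and ATP synthase uses the gradient to make the ATP on which neuronal firing and synaptic transmission depend.

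Total counts per library ranged from 28278708 to 69276892. Reads at ribosomal RNA loci took 18.6% of the counts in BLA isolated library 3, 28.6% in BLA group-housed library 1 and 41.8% in BLA group-housed library 2, and at most 1.57% elsewhere. Marker sums are in CPM (counts scaled to a common library size, here by TMM within a region). A list of 8 dopamine neuron genes summed to between 989 and 2056 CPM in the VTA libraries and to at most 113 CPM in the BLA libraries, and 10 genes of cortical and basolateral glutamatergic neurons to between 1433 and 2768 CPM in the BLA libraries. A list of 10 striatal projection neuron genes summed to between 758 and 2769 CPM in the BLA libraries. In BLA isolated library 1 it exceeded the glutamatergic list (2769 against 1433 CPM). Choroid plexus genes, foreign to both regions, summed to 319 CPM in VTA isolated library 1 and to 4032 CPM in VTA isolated library 3, against 49.8 to 74.6 CPM in the other VTA isolated library and the VTA group-housed libraries. The 37 entries of the mitochondrially encoded subunits and RNAs held 0 counts in all libraries, so the chain is described here by its nuclear genes alone.

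The level of the members spanned a wide range, and the most abundant transcripts belonged to complexes IV and V. Levels of different genes were compared as CPM per kilobase of exon, averaged over the 12 libraries with scaling across all 12. Exon length here and below is the union of all annotated exons of a gene, so it can exceed the length of its main transcript. Cox8a, a small subunit of cytochrome c oxidase, was highest at 359 CPM per kilobase. Atp5a1 and Atp5b, the alpha and beta chains of the catalytic head of ATP synthase, followed at 294 and 266 CPM per kilobase. The leading members of the other complexes were Uqcr11 at 112 in complex III, Sdha, the flavoprotein that oxidises succinate, at 110 in complex II, and Ndufa13 at 82.5 in complex I, in the same unit. The lowest levels per kilobase were those of Cox7b2 (0.704), Cox6b2 (0.871), Ndufs6b (1.24) and Cox4i2 (1.54). In CPM, 77 members averaged at least 10 and 7 lay below. Ndufs6b and Cox6c2 are annotated as processed pseudogenes, copies of spliced transcripts, and counts for them may be shared with their parent genes. Just inside the count minimum were Cox7b2, with 10 counts or more in 7 libraries, and Ndufs6b, in 10. Just outside were Cox8b and Ndufb4c, with 2 libraries each, and Ndufa11b and Cox8c, with 0. Annotation placed a gene on the opposite strand across 28 members, and no source used here states the strand setting of the counting. Reads shared with those genes cannot be told apart in these 28.

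Promoters of 67 members were found in RefSeq (GRCm38.p6), in 72 windows of 300 bases each, 250 before and 50 after a transcription start. Nuclear respiratory factor 1, GABP (an ETS factor) and YY1 are known regulators of respiratory chain genes, and their core motifs were searched on both strands as exact letters. The palindromic form of the NRF-1 motif, GCGCA followed directly by TGCGC, occurred in 5 of the 72 windows (6.94%), against 1.62% of the windows of all genes tested and 0.971% of all RefSeq windows. The YY1 letters AAGATGGC occurred in 10 windows (13.9%), against 3.54% and 2.75%. The ETS letters CCGGAAGT occurred in 5 windows (6.94%), against 6.18% and 3.89%. None of the 3 motifs contains another. By complex, the YY1 letters occurred in 7 of the 31 complex I members with a promoter and in 3 of the 15 of complex V. They occurred in 0 of the 3, 5 and 13 members of complexes II, III and IV. Most of the YY1 matches lay in the 50 bases after the start. A match describes letters in a window and not a bound site. The 250 bases before the start are shown for 4 members from 4 complexes, in lower case with the motif in capitals, 5′ to 3′ on the strand of the gene. Cox6a1, Ndufa11 and Atp5k hold the NRF-1 letters and Uqcr11 the ETS letters. They lie at chr5:115348959-115349208, minus strand (Cox6a1), chr17:56717512-56717761, plus strand (Ndufa11), chr5:108434400-108434649, minus strand (Atp5k) and chr10:80406822-80407071, minus strand (Uqcr11).
Cox6a1: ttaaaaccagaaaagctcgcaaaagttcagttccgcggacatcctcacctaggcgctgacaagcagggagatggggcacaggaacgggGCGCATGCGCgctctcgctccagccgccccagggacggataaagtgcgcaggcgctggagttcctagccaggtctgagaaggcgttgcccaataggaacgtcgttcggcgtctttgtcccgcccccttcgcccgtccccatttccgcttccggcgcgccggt
Ndufa11: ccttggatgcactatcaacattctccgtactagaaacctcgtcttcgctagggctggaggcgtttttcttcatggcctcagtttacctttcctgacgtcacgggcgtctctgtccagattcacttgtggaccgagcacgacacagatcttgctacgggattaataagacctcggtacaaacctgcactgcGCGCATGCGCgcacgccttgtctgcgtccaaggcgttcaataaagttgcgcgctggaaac
Atp5k: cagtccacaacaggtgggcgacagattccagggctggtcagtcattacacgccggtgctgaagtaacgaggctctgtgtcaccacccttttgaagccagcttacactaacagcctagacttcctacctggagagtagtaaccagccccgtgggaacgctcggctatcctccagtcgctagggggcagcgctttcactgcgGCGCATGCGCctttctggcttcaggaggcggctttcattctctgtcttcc
Uqcr11: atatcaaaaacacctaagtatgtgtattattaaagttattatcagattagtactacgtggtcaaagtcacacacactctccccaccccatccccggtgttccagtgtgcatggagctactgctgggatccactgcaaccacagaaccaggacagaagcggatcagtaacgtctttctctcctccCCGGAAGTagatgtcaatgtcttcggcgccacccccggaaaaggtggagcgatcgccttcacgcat
Counting the last printed base as -1, the motif begins at -162 in Cox6a1, at -60 in Ndufa11, at -50 in Atp5k and at -66 in Uqcr11.

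In BLA, early isolation was not accompanied by a detectable change in any of the 84 members. By the quasi-likelihood test of edgeR, with p-values adjusted by Benjamini-Hochberg over 22110 genes, 0 members passed the threshold of 0.05, as did 0.0% of all genes. At an unadjusted p under 0.05 there were 0 members and 439 genes (1.99% of those tested, 1.39% higher and 0.592% lower), and DESeq2 called 0 members and 6 genes. The log2 fold change, isolated relative to group-housed, was above 0 in 52 of 84 members, against 50.8% of all genes and 42.3% of genes of at least 10 CPM. The median was 0.02, beside 0.00 over all genes tested and -0.02 over genes of at least 10 CPM. By complex the medians were 0.02 (I), 0.05 (II), 0.07 (III), -0.02 (IV) and 0.04 (V).

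The spread among the group-housed BLA libraries was wider than the difference between the housing groups, as the plot of each complex by library shows. Group-housed library 1 was the highest of the 6 for 40 members and group-housed library 2 the lowest for 47. Relative to the gene's mean over the region, the average of all members was 0.10 in group-housed library 1 and -0.13 in group-housed library 2 on the log2 scale, with the 3 isolated libraries between -0.01 and 0.03. These are the group-housed libraries with 28.6% and 41.8% of counts at ribosomal RNA loci, and the part of those reads in the spread was not tested. Without group-housed library 2 the median log2 fold change was -0.05, with 18 members above 0, and without group-housed library 1 it was 0.08. After isolation all 10 striatal projection neuron genes had a higher mean in BLA, and 0 of the 10 cortical and basolateral glutamatergic genes. The fold change was above 0 in 50.8% of all genes and 42.3% of genes of at least 10 CPM. The sums of both lists overlapped between the housing groups. Of the other lists, a higher mean was found for 7 of 8 oligodendrocyte, 7 of 8 dopamine neuron and 6 of 8 microglial genes. It was found for 9 of 14 choroid plexus genes, 4 of 8 astrocyte genes and 1 of 6 genes of endothelium and blood. Their part in the members' values was not tested.

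**Figure D1:**
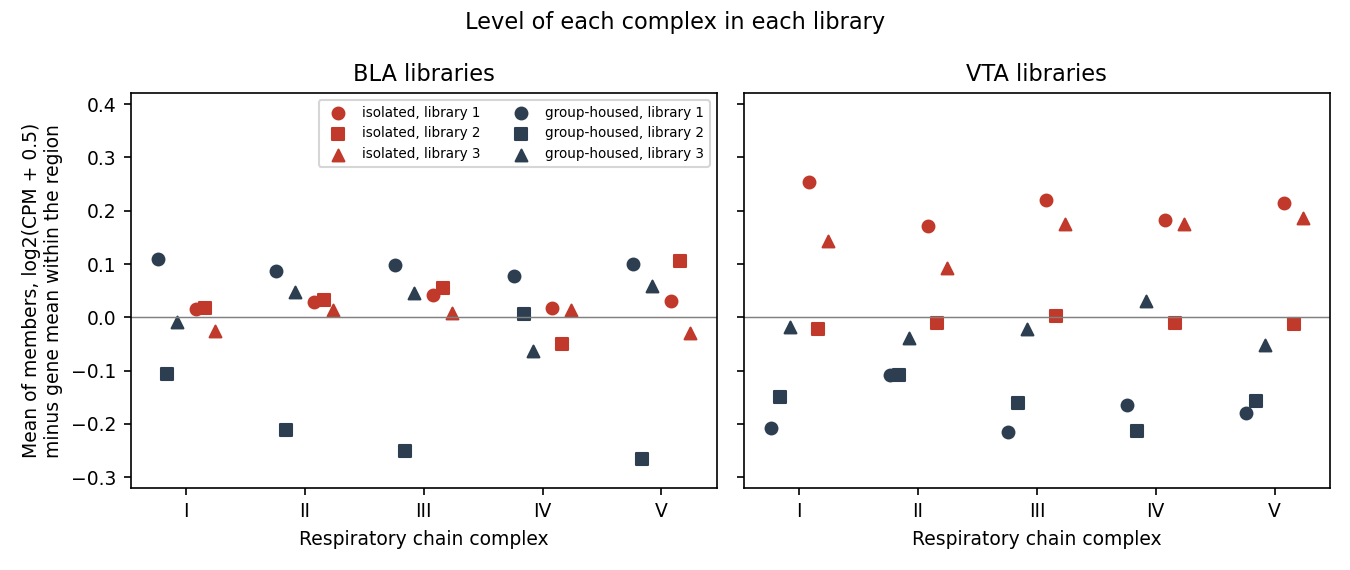
Mean level of the members of each complex in each library, as log2(CPM + 0.5) minus the gene's mean over the 6 libraries of the region; colours mark housing and symbols the library number. In BLA the group-housed libraries 1 and 2 lie farthest apart in complexes I, II and III, and in VTA the isolated libraries 1 and 3 lie above all group-housed libraries in every complex.

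Single BLA members are given by the smallest p in each direction. Levels in the housing comparisons are CPM scaled within the region. Cox7c, a small subunit of complex IV, measured 73.3, 76.1 and 77.3 CPM after isolation and 72.0, 65.5 and 66.5 CPM in group housing. Its log2 fold change was 0.15 (SE 0.09, edgeR adjusted p = 1.00). The groups did not overlap, which held for 1 member in this direction (1.19%, against 4.23% of all genes). Ndufa10, an accessory subunit of complex I, measured 101, 108 and 108 CPM after isolation and 117, 120.6 and 111 CPM in group housing, a log2 fold change of -0.13 (SE 0.09, edgeR adjusted p = 1.00). Every isolated library was lower for 3 members, Ndufa10, Ndufs5 and Uqcrb (3.57%, against 2.85% of all genes). Among genes of at least 10 CPM the groups were apart for 1.87% upward and 3.13% downward. Uqcr11, the smallest subunit of complex III, had the largest positive value of that complex, 0.24 (SE 0.17). It measured 75.0, 67.5 and 73.7 CPM after isolation and in group housing 75.6, 43.0 and 63.6 CPM, so the groups overlapped and the low value was that of group-housed library 2. Atp5l, the g subunit of ATP synthase, had 0.20 (SE 0.14), and Ndufa1, of the membrane arm of complex I, had 0.15 (SE 0.11). In complex II, Sdhd had 0.09 (SE 0.11) and Sdha -0.01 (SE 0.09), and the sign of both depended on the libraries or the scaling used.

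In VTA, the members lay higher in isolated than in group-housed females in all 5 complexes, but no member passed the test. The median log2 fold change was 0.27 over the 84 members, beside -0.00 over all 24082 genes tested and 0.10 over the 10388 genes of at least 10 CPM. By complex it was 0.27 (I), 0.17 (II), 0.28 (III), 0.28 (IV) and 0.27 (V). In bulk tissue, more cells of a type and more RNA per cell cannot be told apart.

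By edgeR's quasi-likelihood test, 0 members had an adjusted p under 0.05, against 0.00415% of all genes, which is 1 gene. The smallest adjusted p among the members was 0.236. At an unadjusted p under 0.05 there were 61 of 84 members, all higher, against 8.73% of all genes in that direction and 9.58% in the other. Of the 10388 genes of at least 10 CPM, 2283 had such a p in either direction, beside 60 of the 77 members at that level. The fold change was above 0 in 81 members, against 49.8% of all genes and 72.9% of genes of at least 10 CPM. Every isolated library exceeded every group-housed library for 42 members (50%), against 12.6% of all genes and 24% of genes of at least 10 CPM. The opposite order held for 0 members, against 13.5% and 5.39%.

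**Figure D2:**
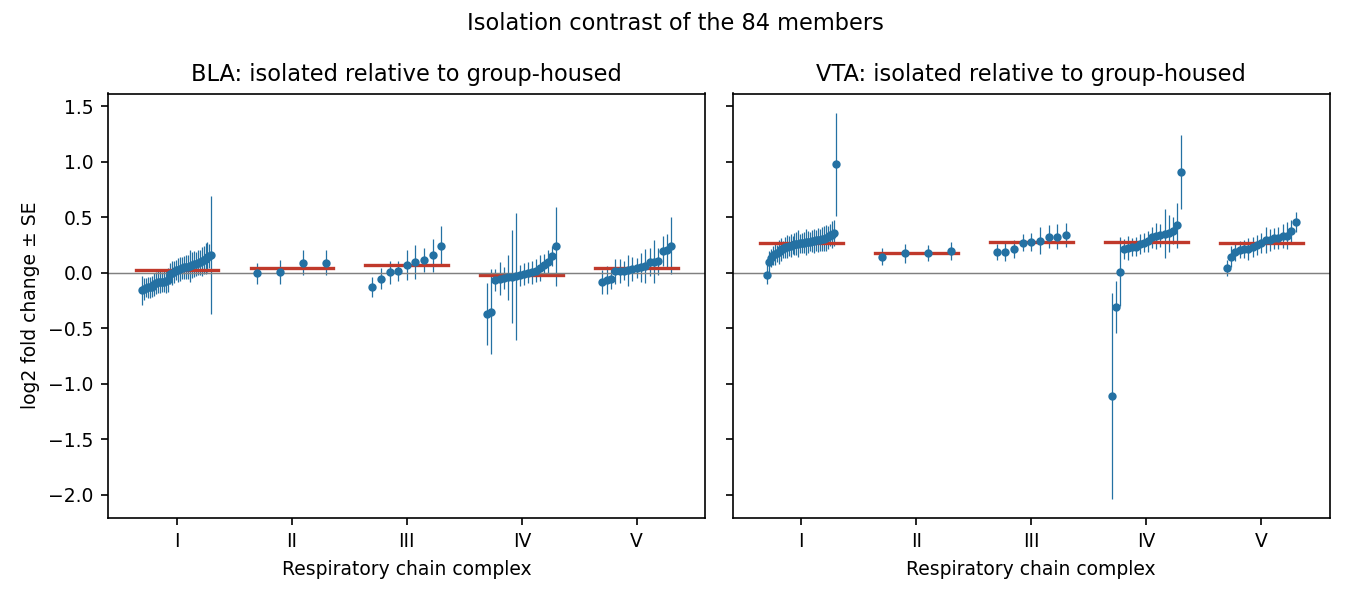
Log2 fold change of each member, isolated relative to group-housed, with its standard error, sorted within each complex; the red line is the median of the complex. In BLA the points lie on both sides of 0, and in VTA 81 of 84 lie above it, with complex medians between 0.17 and 0.28.

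The elevation was not equal across the isolated libraries. Relative to the gene's mean over the region, the average of all members on the log2 scale was 0.22 in isolated library 1, -0.01 in isolated library 2 and 0.16 in isolated library 3, and -0.19, -0.16 and -0.02 in the group-housed libraries. Isolated library 2 and group-housed library 3 thus lay at nearly the same level. In complexes I and IV the mean of isolated library 2 fell below that of group-housed library 3, and in complexes II, III and V it lay above it. Isolated library 1 was the highest of the 6 for 60 members and isolated library 3 for 18.

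Markers of several other cell types also had a higher mean after isolation. Beside the counts that follow, the fold change was above 0 in 49.8% of all genes and 72.9% of genes of at least 10 CPM. Choroid plexus genes were high in isolated libraries 1 and 3, and all 14 had a higher mean in the isolated group. The 10 cortical and basolateral glutamatergic genes also all had a higher mean, with sums of 304, 257 and 1019 CPM in the isolated libraries and 188 to 229 CPM in the group-housed libraries, and so did all 8 oligodendrocyte and all 8 microglial genes. Astrocyte genes summed to 4650 to 5032 CPM in the isolated and 4139 to 4428 CPM in the group-housed libraries, without overlap, with 6 of 8 genes higher. Striatal projection neuron genes were higher in 8 of 10, with a sum of 827 CPM in isolated library 3, where group-housed sums ran from 239.9 to 295 CPM. Of the 8 dopamine neuron genes, 4 had a higher mean, and of the 6 genes of endothelium and blood, 4. Oligodendrocyte sums overlapped, at 11565 to 15139 CPM in the isolated and 8055 to 13186 CPM in the group-housed libraries. So did microglial sums, at 266 to 396 and 256 to 299 CPM, and those of endothelium and blood, at 216 to 288 and 181 to 363 CPM. With isolated library 2 alone set against the 3 group-housed libraries, and its spread taken from theirs, the median of the members was 0.12. Without isolated library 2 instead, the median was 0.32 and 11 members passed the test, all higher (13.1%), beside 4.81% of all genes tested in that fit (1.48% higher and 3.33% lower). The part of those cells in the members' values was not tested.

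**Figure D3:**
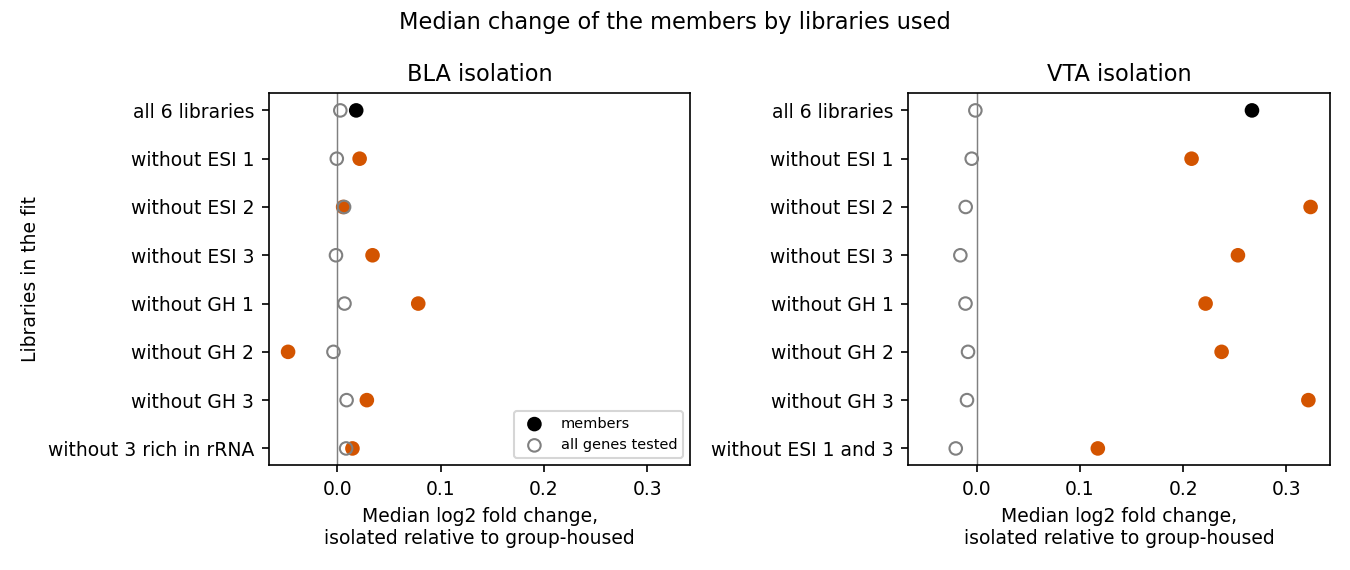
Median log2 fold change of the members (filled) and of all genes tested (open), isolated relative to group-housed, with all 6 libraries of a region and with libraries left out. In BLA the median is -0.05 without group-housed library 2, and in VTA it ranges from 0.12 without isolated libraries 1 and 3 to 0.32 without isolated library 2.

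ATP synthase held the member of smallest p. Atp5e, the epsilon subunit of the central stalk (chr2:174461072-174464105, minus strand, GRCm38), lay at 75.7, 61.8 and 71.7 CPM in the isolated VTA libraries and at 49.8, 49.97 and 52.8 CPM in the group-housed ones. The groups were apart, and the log2 fold change was 0.46 (SE 0.09, edgeR adjusted p = 0.236). DESeq2 gave an adjusted p of 0.0104 for the same gene, the only member among the 485 genes it called (2.01% of those tested). Over 17 alternatives the adjusted p of Atp5e ran from 0.0104 to 0.986 and its log2 fold change from 0.28 to 0.54. Atp5a1, the alpha chain, measured 1338, 1146 and 1225 CPM after isolation and 992, 1013 and 1115 CPM in group housing (log2 fold change 0.25, SE 0.09). Of the 17 members of complex V, 11 had groups that did not overlap, all higher after isolation (64.7%, against 12.6% of all genes and 24% of genes of at least 10 CPM).

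In complex I the smallest p was that of Ndufc2, of the membrane arm, at 89.3, 69.9 and 82.4 CPM in isolated and 60.2, 65.3 and 65.5 CPM in group-housed libraries (log2 fold change 0.34, SE 0.10, edgeR adjusted p = 0.236). It was 1 of 15 complex I members whose groups were apart (41.7% of 36, against 12.6% of all genes and 24% of genes of at least 10 CPM). In complex III it was Uqcrfs1, the Rieske iron-sulfur protein that passes electrons to cytochrome c1. Its isolated libraries lay at 116, 105 and 107 CPM and its group-housed libraries at 85.0, 90.6 and 95.9 CPM (0.27, SE 0.08, edgeR adjusted p = 0.236). In complex IV it was Cox7a2, the widely expressed form of subunit VIIa, at 140.4, 119 and 134 CPM against 97.8, 102 and 116 CPM (0.32, SE 0.09, edgeR adjusted p = 0.236).

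Complex II had the smallest median of the 5 complexes. Sdhb, its iron-sulfur subunit, lay at 139.6, 121 and 139 CPM in the isolated and at 117, 112 and 119.8 CPM in the group-housed VTA libraries, a log2 fold change of 0.19 (SE 0.08). The other 3 were Sdhd at 0.18 (SE 0.07) and Sdhc at 0.17 (SE 0.08), the membrane anchors, and Sdha at 0.14 (SE 0.08). For 3 of the 4, all but Sdhc, the isolated libraries were all above the group-housed ones (75%, against 12.6% of all genes and 24% of genes of at least 10 CPM).

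The 3 members below 0 in VTA were Cox7b2, Cox6a2 and Ndufb2. Cox6a2, the heart and muscle form of subunit VIa, lay at 1.73, 2.33 and 1.91 CPM in the isolated and 2.64, 2.79 and 2.01 CPM in the group-housed libraries, with overlap (log2 fold change -0.31, SE 0.24, edgeR adjusted p = 0.478). Cox7b2 lay between 0.01 and 0.61 CPM in the 6 libraries, too low for a direction to be read (-1.11, SE 0.93). Ndufb2, of complex I, had -0.02 (SE 0.09), and its sign turned without isolated library 3. Cox4i2, the second form of subunit IV, had the largest value of complex IV at 0.91 (SE 0.34, edgeR adjusted p = 0.249), from 2.70, 1.63 and 1.38 CPM against 0.85, 0.85 and 1.31 CPM.

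The other genes of mitochondrial energy metabolism were looked at by lists, and 0 of their genes passed the test in either housing contrast. In VTA the median log2 fold change was 0.21 over 16 citric acid cycle genes (16 above 0), 0.19 over 45 assembly factors (39 above 0), 0.24 over 10 genes of electron carriers and adenine nucleotide transport (9 above 0) and 0.17 over 77 mitochondrial ribosomal proteins (71 above 0). Glycolysis, in the cytosol, had a median of 0.19 over 17 genes (16 above 0), and regulators of mitochondrial biogenesis 0.06 over 13 (10 above 0). In BLA the medians of these lists lay between -0.03 and 0.05. Among single genes, Idh3a, a subunit of isocitrate dehydrogenase, had 0.27 (SE 0.08) in VTA, and Slc25a5, an ADP/ATP carrier, had 0.37 (SE 0.11). Coa3 and Ndufaf4, assembly factors of complexes IV and I, had 0.29 (SE 0.07) and 0.31 (SE 0.08). Tfam, which packages and transcribes mitochondrial DNA, had 0.15 (SE 0.07), and each of these 5 had an edgeR adjusted p of 0.236 or more.

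The difference of the housing responses, BLA minus VTA, was tested in one fit of the 12 libraries. No member passed (0 of 84, against 0.0% of 25009 genes), and DESeq2 called 0 members and 142 genes. At an unadjusted p under 0.05 there were 31 members, all with the lower response in BLA, against 8.23% of all genes in that direction, 6.68% in the other and 14.9% in both (3729 genes). Of the 10389 genes of at least 10 CPM, 1919 had such a p in either direction, beside 30 of the 77 members at that level. The median was -0.29, beside -0.06 over all genes and -0.18 over genes of at least 10 CPM, and 80 members lay below 0. The 4 above 0 compare with 44.7% of all genes and 20.1% of genes of at least 10 CPM. Ndufa8, Ndufv2 and Ndufa11, all of complex I, had the smallest p, with values of -0.50 (SE 0.15), -0.51 (SE 0.15) and -0.50 (SE 0.16) and an edgeR adjusted p of 0.303 each. For Ndufv2, of the NADH-oxidising module, the isolated and group-housed means in BLA gave -0.13 (SE 0.10) and those in VTA 0.32 (SE 0.11). The smallest p on the other side were those of Cox7b2 (1.02, SE 1.17), Cox6a2 (0.21, SE 0.31) and Atp5l (0.09, SE 0.17). Without VTA isolated library 2, 4 members passed, Ndufa8, Ndufa4, Ndufv2 and Ndufs8, each with a lower response in BLA (4.76%, beside 1.9% of all genes in that fit and 0.487% in that direction).

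Between the regions, in group-housed mice, 13 of 84 members (15.5%) passed the test, against 37.2% of all 25009 genes. Higher in BLA were 8 members (19.9% of all genes were), and lower were 5 (17.3% of all genes were). Among genes of at least 10 CPM, 53.4% passed (35.5% higher and 17.8% lower). Of the 77 members at that level, 11.7% passed (7.79% higher and 3.9% lower). The median over the members was 0.01, beside -0.05 over all genes. The groups were apart for 10 members with BLA higher (25.5% of all genes were) and for 12 with BLA lower (26.7% of all genes were). Among genes of at least 10 CPM these shares were 42.5% and 23.4%. Levels between the regions are CPM scaled across all 12 libraries, and means are given ± SD with n = 3.

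The abundant cytochrome c oxidase subunits Cox6a1 and Cox8a and the ATP synthase delta subunit Atp5d were higher in BLA. Cox6a1 (chr5:115345642-115348981, minus strand), whose promoter is shown above, lay at 203, 169 and 169 CPM in BLA and at 98.5, 102 and 130.5 CPM in VTA. The means were 180.5 ± 19.5 and 110.2 ± 17.6 CPM, a log2 fold change of 0.71 (SE 0.12, edgeR adjusted p = 0.000288). Cox8a (chr19:7215153-7217616, minus strand) lay at 292, 223 and 252 CPM in BLA and at 150.1, 164 and 181 CPM in VTA (0.63, SE 0.11, edgeR adjusted p = 0.000427). Atp5d (chr10:80138632-80145818, plus strand) averaged 124 ± 7.32 CPM in BLA and 79.3 ± 12 CPM in VTA (0.65, SE 0.12, edgeR adjusted p = 0.000511). The groups did not overlap in any of these 3. Atp5d lies across Cbarp on the opposite strand, and Cbarp was also higher in BLA, by 0.51 (edgeR adjusted p = 0.000498). The part of shared reads was not tested.

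Of complex I, Ndufb9 (0.54, SE 0.13), Ndufa8 (0.37, SE 0.10) and Ndufa10 (0.29, SE 0.10) were higher in BLA. Ndufb2 (chr6:39592574-39603382, plus strand) was lower, at 25.2, 19.6 and 23.4 CPM in BLA against 36.6, 35.9 and 37.3 CPM in VTA (-0.68, SE 0.10, edgeR adjusted p = 0.000103). Other genes lie across Ndufb2 on the opposite strand. Both complex II members that passed were lower in BLA: Sdha at -0.24 (SE 0.08, edgeR adjusted p = 0.0295) and Sdhc at -0.30 (SE 0.11, edgeR adjusted p = 0.0378). No member of complex III passed. The smallest edgeR adjusted p there was 0.0698, for Uqcrh, the hinge protein, and Uqcr11 had 0.32 (SE 0.17, edgeR adjusted p = 0.157).

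**Figure D4:**
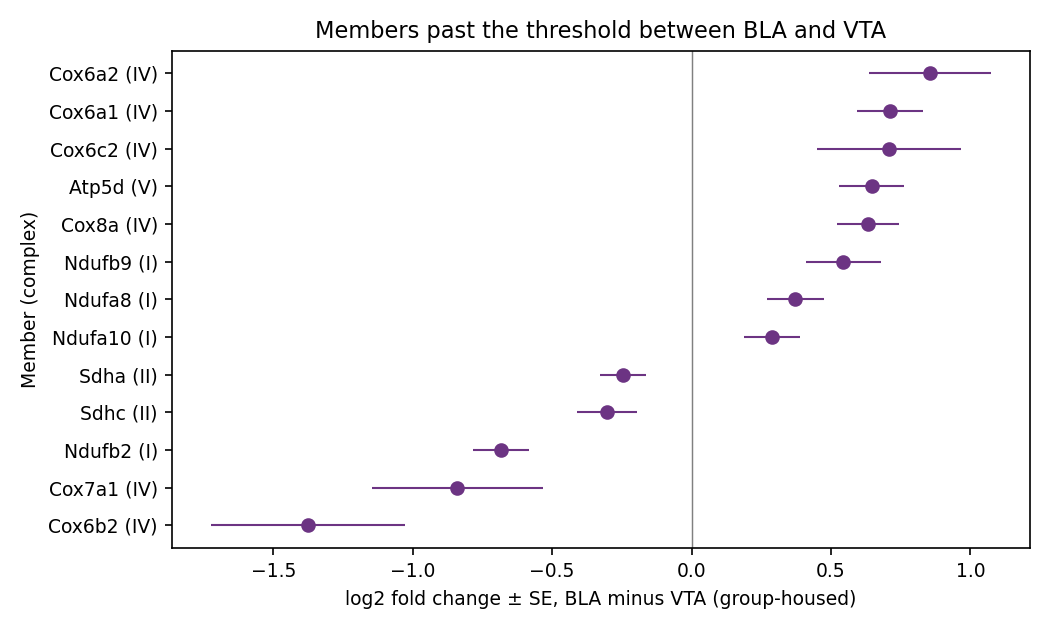
Log2 fold change with its standard error, BLA minus VTA in group-housed mice, for the 13 members with an adjusted p under 0.05, each with its complex. The 8 members higher in BLA run from 0.29 (Ndufa10) to 0.86 (Cox6a2), and the 5 lower from -0.24 (Sdha) to -1.38 (Cox6b2).

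Of the 18 complex IV members, 6 passed (33.3%, against 37.2% of all genes and 53.4% of genes of at least 10 CPM). Cox6a2, the muscle form paired with Cox6a1, was higher in BLA, at 4.12, 2.97 and 4.09 CPM against 2.20, 2.34 and 1.69 CPM (0.86, SE 0.22, edgeR adjusted p = 0.00608). Cox6b2, known from testis, was lower in BLA, at 0.55, 0.61 and 0.46 CPM against 1.69, 0.82 and 1.61 CPM (-1.38, SE 0.35, edgeR adjusted p = 0.00569). Cox7a1, the muscle form of subunit VIIa, was also lower, at 1.10, 1.57 and 0.60 CPM against 1.67, 1.63 and 2.26 CPM (-0.84, SE 0.31, edgeR adjusted p = 0.0428). The processed pseudogene Cox6c2 was higher in BLA (0.71, SE 0.26, edgeR adjusted p = 0.0431).

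As a share of the pair, in counts per exon length, these second forms were minor in every library. Cox6a2 made up 2.09% ± 0.33 of Cox6a1 and Cox6a2 together in BLA group-housed libraries (SD, n = 3 here and below), 2.02% ± 0.11 in BLA isolated, 1.97% ± 0.56 in VTA group-housed and 1.24% ± 0.29 in VTA isolated libraries. Cox7a1 made up 2.14% ± 1.15 and 1.56% ± 0.18 of its pair with Cox7a2 in BLA group-housed and isolated libraries, and 3.55% ± 0.34 and 3.68% ± 0.61 in VTA. Cox6b2 made up 0.222% ± 0.018 and 0.214% ± 0.076 of its pair with Cox6b1 in BLA, and 0.613% ± 0.214 and 0.527% ± 0.040 in VTA. Cox4i2 stayed at or below 1.28% of its pair with Cox4i1 and Cox7b2 at or below 1.56% of its pair with Cox7b. In complex V the c ring is encoded by 3 genes with the same mature protein. Per exon length Atp5g3 led in every library, at 53.3% ± 2.49 of the 3 in BLA group-housed and 58.4% ± 0.17 in VTA group-housed libraries. Atp5g1 gave 24.7% ± 1.45 and 21.4% ± 1.08, and Atp5g2 22.1% ± 1.06 and 20.2% ± 0.97, in the same groups. The lead of Atp5g3 depended on the exon length used, which was 2181 bases for Atp5g3 and 4912 for Atp5g1. In raw counts Atp5g1 exceeded Atp5g3 in BLA isolated libraries 2 (6943 against 6858) and 3 (3246 against 2984). It also did so in BLA group-housed library 2 (1318 against 1120), and Atp5g3 was higher in the other libraries.

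**Figure D5:**
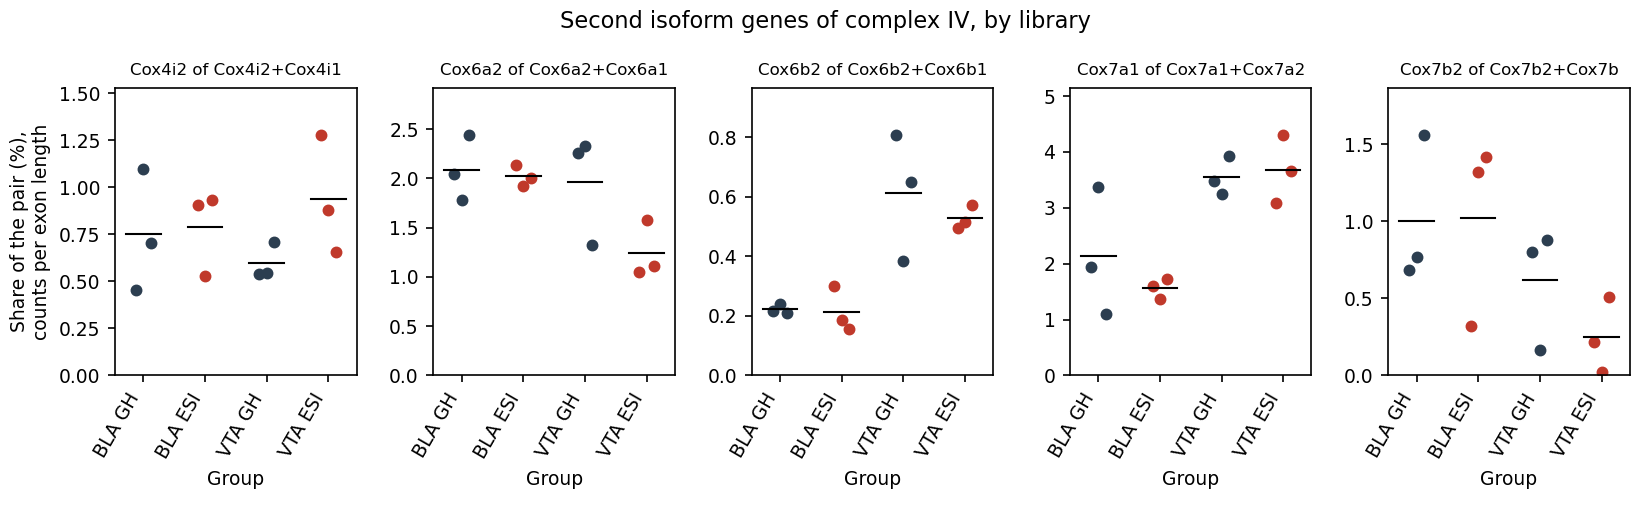
Share of the second isoform gene in each complex IV pair, in percent of counts per exon length, for each library; the line is the group mean of 3 libraries. Every library of Cox6b2 lies higher in VTA than in BLA, and Cox7a1 overlaps between the regions through 1 BLA group-housed library at 3.37%.

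How many members passed between the regions depended on the scaling and the libraries. With upper-quartile factors 26 passed (5 higher and 21 lower in BLA), which is 31% of the members beside 39.2% of all genes. With total counts, ribosomal RNA loci removed and no factors, 46 passed (3 and 43), which is 54.8% beside 44.3%. The median of all genes moved to -0.18 and -0.34 and the members lay 0.06 and 0.05 above it, as with TMM (0.06). Without VTA group-housed library 1 or 2, 8 members passed (9.52%, beside 30.9% and 29.2% of all genes). Averaged over both housing conditions, 36 passed (5 higher and 31 lower), which is 42.9% beside 47.7%. Without the 3 BLA libraries rich in ribosomal RNA reads, 7 passed (8.33%, beside 18.5%). That fit leaves group-housed library 3 as the only one on the BLA side, with its spread taken from the other groups. Cox6a1, Cox8a, Atp5d and Ndufb2 passed in all 23 alternatives in the direction given above, of which the one just described has a single BLA group-housed library. Of the others, Cox6c2 passed in 10, Cox7a1 in 13, Sdhc in 15, Ndufa10 in 15, Sdha in 16, Ndufa8 in 18, Ndufb9 and Cox6a2 in 21 and Cox6b2 in 22, and Ndufa10 lay at -0.00 without scaling factors.

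The other lists are set against 37.2% of all genes passing between the regions (19.9% higher and 17.3% lower in BLA). Among genes of at least 10 CPM, 53.4% passed (35.5% higher and 17.8% lower). Of 17 glycolysis genes 9 passed (52.9%, with 8 higher and 1 lower), near the share of genes of at least 10 CPM. So did 14 of 45 assembly factors (31.1%, 6 and 8) and 12 of 77 mitochondrial ribosomal proteins (15.6%, 8 and 4), both below that share. Of the citric acid cycle genes 4 of 16 passed (3 and 1), and of the biogenesis regulators 4 of 13 (4 and 0). Of the genes of electron carriers and adenine nucleotide transport 3 of 10 passed (1 and 2).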

How the data were processed

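RNA was extracted with Trizol and stranded total RNA libraries were made after depletion of ribosomal RNA, per the labels' protocols. The deposited values are raw gene counts made by the authors. Per the submitters' processing notes, the tools were cutadapt, TopHat2 and HTSeq, and the build was mm10, with no versions. No source used here states the annotation or the strand setting. Groups were taken from the sample titles. The table of the whole series and the per-sample tables differed at 2 entries. All replicate pairs differed by more than counting noise (lowest chi-square over degrees of freedom 20.8).

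The members and lists were chosen with earlier results of these data known. Genes kept by filterByExpr (minimum count 10, total 15) received TMM factors, and the robust quasi-likelihood test of edgeR 4.0.16 (R 4.3.3) was run within a region on 6 libraries, or on all 12 for the difference and for BLA against VTA, with Benjamini-Hochberg adjustment over all genes tested and a threshold of 0.05. Levels in the housing comparisons use factors over the 6 libraries of a region. This choice was made after the values were seen: with factors over all 12 libraries, 51 instead of 42 members had non-overlapping groups in VTA. Exon lengths and positions came from the GENCODE annotation of GRCm38 (mm10), and promoters from RefSeq. Named in each complex were the member of highest level per kilobase, those of smallest p in each direction under isolation and, between regions, up to 3 members past the threshold with the largest change in each direction, besides the paired isoforms, complex II, 3 members per direction for the difference and 2 genes of smallest VTA p per other list, of which some are described. Atp5b, Ndufs6b, Uqcrh, Cbarp and genes called only without a library were named after their values were seen.

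Alternatives were DESeq2 1.42.0, limma 3.58.1 (voom, quality-weighted), factors by upper quartile or RLE, no filter, 10 counts in 3 libraries, removal of ribosomal RNA loci, a fit of all 12 libraries, a replicate block, an average over housing and leaving out libraries. Total counts with the ribosomal RNA loci removed and no factors, and a block by number over both regions were added after the data were seen. Where an alternative leaves 1 library in a group, that library is assumed to vary like those of the other groups. On simulated counts, 13.4% of genes changed 1.5-fold and 56.7% of those changed 2-fold were recovered in VTA (24082 genes tested). In BLA it was 46.3% and 73.1% (22110 genes tested). The changed genes were drawn only from those above a minimum mean count, and no change under 1.5-fold was simulated. Apart from the changed genes, all simulated libraries shared the same mean profile.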

Additional observations from a re-analysis of the deposited data

Results flagged for a closer look

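Uqcrb, a small subunit of complex III (chr13:66900617-66905378, minus strand, GRCm38), was separated by housing in both regions, in opposite directions. In BLA every isolated library (40.7, 43.1 and 42.3 CPM, scaled within the region) lay below every group-housed library (46.9, 47.7 and 43.4 CPM). In VTA every isolated library (81.8, 70.5 and 82.6 CPM) lay above every group-housed library (67.6, 70.3 and 68.2 CPM), the nearest pair being isolated library 2 and group-housed library 2. The log2 fold changes were -0.13 (SE 0.09) in BLA and 0.19 (SE 0.08) in VTA. The difference of the responses was -0.38 (SE 0.12), and its edgeR adjusted p of 0.303 did not pass. Isolated libraries were all lower in BLA for 3.57% of members, 2.85% of all genes and 3.13% of genes of at least 10 CPM. In VTA they were all higher for 50% of members, 12.6% of all genes and 24% of genes of at least 10 CPM. The share of genes apart in both regions is not given here.

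Cox8b, the muscle form of the subunit also encoded by Cox8a, had too few counts to be a member and drew attention by 1 library. VTA isolated library 3 held 92 counts, or 1.74 CPM scaled within the region, and VTA group-housed library 3 held 17, while the other 10 libraries held between 2 and 9. VTA isolated library 3 is also the library in which choroid plexus genes summed to 4032 CPM, and the part of those cells in the value was not tested.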

How the results depend on the processing

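The member count in BLA was 0 in all 17 alternatives, with a median log2 fold change from -0.05 to 0.08 when 1 library was left out. In VTA, DESeq2 called 1 member. Leaving out 1 library gave 0 to 11 members and medians from 0.21 to 0.32, the median was 0.16 with total counts, ribosomal RNA loci removed and no factors (all genes -0.11), and 0.12 without the 2 libraries rich in choroid plexus markers. For the difference the median was -0.15 with upper-quartile factors, -0.40 with limma voom and -0.094 with total counts and no factors. It was -0.12 without all 5 libraries named above (1 BLA group-housed and 1 VTA isolated library left). The median of all genes in those fits is not given here. How far the members moved relative to all genes is therefore not shown. Leaving out 1 library gave 0 to 4 members and medians from -0.36 to -0.22. Between the regions the members called were 26 with upper-quartile factors, 46 without factors, 36 averaged over housing, 7 without the 3 BLA libraries of high ribosomal RNA share and 8 to 15 with 1 library left out. The medians were -0.12, -0.28 and -0.18 in the first 3 of these. With 1 library left out, 9.52% to 17.9% of the members were called, beside 29.2% to 37.4% of all genes. The cause of these changes with the processing was not tested.

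Signs turned for 8 single values. BLA Sdha was 0.0048 with upper-quartile factors, 0.0027 with no filter, 0.018 without factors and from -0.042 to 0.0089 with 1 library left out. BLA Sdhd was -0.060 and Cox6c2 0.14 without the 3 libraries of high ribosomal RNA share, which leaves 1 group-housed library. With 1 library left out, Sdhd went down to -0.0304 and Atp5h ranged from -0.14 to 0.021. VTA Ndufb2 was 0.036 in the fit of all 12 libraries, 0.093 without the choroid plexus libraries and from -0.077 to 0.052 with 1 left out. In the difference Atp5l ranged from -0.0042 to 0.19 with 1 left out and Cox6a2 -0.11 without the 5 libraries. Ndufa10 between regions was -0.00019 without factors.

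Replicate numbers did not pair the libraries (correlations of same-numbered deviations from -0.058 to 0.172). With a replicate block 0 members were called in BLA (median 0.022), VTA (0.267) and the difference (-0.285). A block within regions cannot estimate the contrast between them, so it was not run. A block by number over both regions called 12 members there (14.3%, beside 35.9% of all genes in that fit).

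In simulated counts, with the limits given above, 1.5-fold changes were recovered for 46.3% of the changed genes in BLA and 13.4% in VTA. For the difference it was 5.97% and between regions 22.4%.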

Other observations

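Ndufab1, the mitochondrial acyl carrier protein of complex I, falls outside the name pattern because of the letters before its number. Its log2 fold change with isolation was 0.04 (SE 0.10) in VTA and 0.06 (SE 0.10) in BLA, beside complex I medians of 0.27 and 0.02, and it lay at -0.23 between BLA and VTA (edgeR adjusted p = 0.0884). Foxred1, a complex I assembly factor, had the lowest VTA value of its list at -0.22 (SE 0.08, edgeR adjusted p = 0.244), beside 39 of 45 genes of that list above 0. Among the glycolysis genes, Ldha, a lactate dehydrogenase chain, was 1.02 higher on the log2 scale in BLA than in VTA of group-housed mice (SE 0.15, edgeR adjusted p = 9.0e-05), and Ldhb, the other chain, lay at -0.06 (SE 0.13, edgeR adjusted p = 0.768). These genes were picked after their values were seen.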
